A study of Homo sapiens with 21 samples.

Results

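The catecholamines dopamine, noradrenaline and adrenaline are made, packed into vesicles, taken back up and broken down by a small set of proteins. The 9 genes described here encode the main ones: TH, DDC, DBH and GCH1 for synthesis, SLC18A1 and SLC18A2 for storage, SLC6A2 for reuptake, and MAOA and MAOB for breakdown. They were selected by gene symbol from the 60728 genes of the deposited expression table, by a rule that uses none of their values. Earlier results of these data were known when the genes were chosen. All 9 passed the filter on low reads and were tested among 18584 genes. SLC18A2 reached the read cutoff of that filter in 9 of 21 libraries, labelled Control, shARID1A.2, shARID1A/B.2.3 or shARID1B.2. Its falls from Control are thus not independent of the filter, since no library of shARID1A.4, shARID1B.3 or shARID1A/B.4.2 reached that cutoff. MAOB reached it in 3 libraries, labelled shARID1A.2 or shARID1A/B.4.2, so it entered the tests only through conditions in which it was high.

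Tyrosine hydroxylase, encoded by TH, turns tyrosine into L-DOPA in the rate-limiting step, with tetrahydrobiopterin as its cofactor, and GTP cyclohydrolase (GCH1) starts the synthesis of that cofactor. DOPA decarboxylase (DDC) makes dopamine in the cytosol, the vesicular monoamine transporters (SLC18A1 and SLC18A2) load it into vesicles, and dopamine beta-hydroxylase (DBH) converts it there into noradrenaline. The noradrenaline transporter (SLC6A2) returns released noradrenaline to the cell, and the monoamine oxidases MAOA and MAOB of the outer mitochondrial membrane oxidise what is left in the cytosol. Neuroblastoma arises from the sympathetic lineage, in which this pathway belongs to the noradrenergic cell state.

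The cells were SK-N-BE(2), a long-established line from a human neuroblastoma with amplified MYCN. They were transduced with lentivirus carrying short hairpin RNAs (shRNAs, which lower the transcript they match) against ARID1A, ARID1B or both, and their polyadenylated RNA was sequenced after 72 h. ARID1A and ARID1B are mutually exclusive subunits of the BAF chromatin remodeller, and the question put to the data was how each of the 9 genes stood in each silenced condition against Control. There were 7 conditions with 3 libraries each, described as biological triplicates: Control with a non-silencing shRNA, shARID1A.2 and shARID1A.4, then shARID1B.2 with shARID1B.3, and last shARID1A/B.2.3 beside shARID1A/B.4.2. There were 2 shRNAs per gene and 2 combinations for both genes. All conditions, Control included, were transduced cells of this 1 line, grown in serum-containing medium with insulin, transferrin and selenium. Each value is a read count over the size factor of its library, and fold changes are differences of log2(value + 1) tested with limma, adjusted by the Benjamini-Hochberg method over all 18584 genes, with calls at an adjusted p under 0.05.

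The targeted genes were examined first, since they check the labels. ARID1A was 6097 to 6463 in Control, 2109 to 2169 in shARID1A.2, 2157 to 2289 in shARID1A.4, 1882 to 1962 in shARID1B.2 and 2449.7 to 2507 in shARID1B.3, but 5510.3 to 5752 in shARID1A/B.2.3 and 5352 to 5589 in shARID1A/B.4.2. ARID1B was 5791 to 5804 in Control, 2224 to 2252 in shARID1A.2, 3065 to 3126 in shARID1A.4, 2540.5 to 2651 in shARID1A/B.2.3 and 1881 to 1955 in shARID1A/B.4.2, but 4913 to 5056 in shARID1B.2 and 6038 to 6182 in shARID1B.3. Both transcripts were thus low in the libraries labelled shARID1A, ARID1A alone was low in those labelled shARID1B, and ARID1B was low in those labelled shARID1A/B. ARID1A fell by 0.16 in shARID1A/B.2.3 and by 0.21 in shARID1A/B.4.2 on the log2 scale (adjusted p = 3.37e-05 and 4.05e-07 from limma), against falls of 1.35 to 1.72 in the other 4 conditions. The call in shARID1A/B.4.2 was lost with scaling to total reads (-0.027) or to the upper quartile (-0.052). These scalings moved the median of all genes there to 0.20 and 0.18. ARID1B changed by -0.21 in shARID1B.2 and 0.072 in shARID1B.3, against falls of 0.90 to 1.60 in the 4 conditions in which it was low. The labels shARID1B and shARID1A/B are thus contradicted by the genes they name, and so is a single target in shARID1A. Conditions are named below by their labels as written, and every direction is drawn from libraries so labelled.

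**Figure D1:**
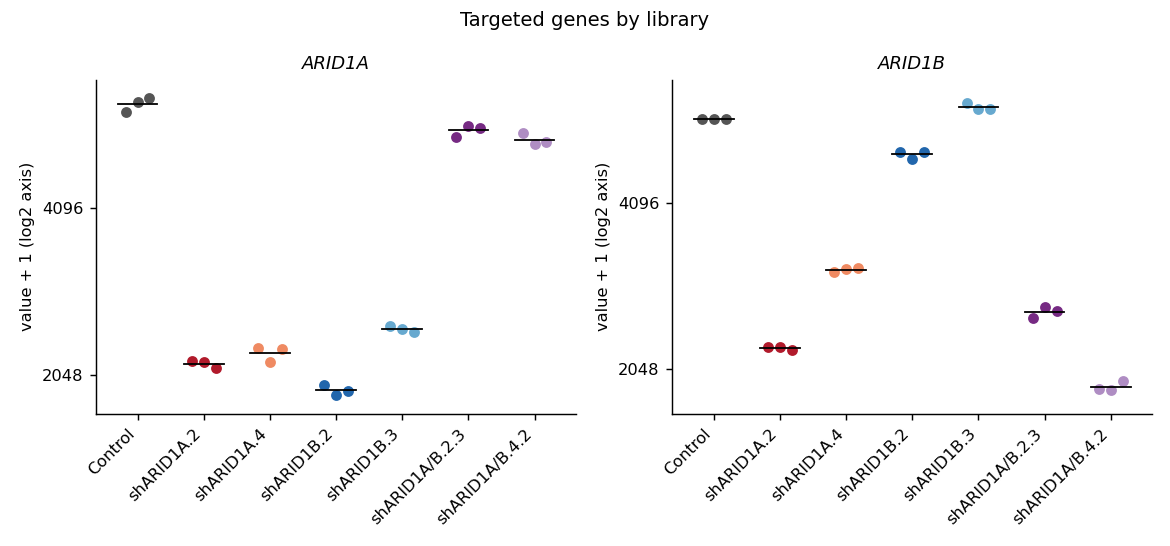
ARID1A and ARID1B in each of the 21 libraries (points, value + 1 on a log2 axis) by labelled condition, with the mean of the 3 libraries as a line. Both genes lie below Control in the libraries labelled shARID1A, ARID1A alone lies far below it in those labelled shARID1B, and ARID1B does in those labelled shARID1A/B.

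Libraries held 27954334 to 41077638 reads. The noradrenergic markers of the cell line were present in every condition, with condition means of 5922 to 19231 for HAND2 and 79339 to 418088 for MYCN. Of 7 such markers, 3 rose and 4 fell in shARID1A.2, shARID1B.3, shARID1A/B.2.3 and shARID1A/B.4.2, 2 and 3 in shARID1A.4, and 1 and 6 in shARID1B.2. The glial marker SOX10 was listed at 0 in all 21 libraries. PNMT, which makes adrenaline, and SLC6A3, the dopamine transporter, were below the filter with condition means of at most 7.26 and 4.83. In bulk RNA, fewer cells of a type and less RNA per cell cannot be told apart.

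To compare levels between genes, reads were also expressed per kilobase of annotated exon and per megaread of depth (RPKM). In Control the RPKM was 42.0 ± 0.294 for SLC6A2, 40.3 ± 1.09 for DDC and 24.1 ± 0.465 for GCH1 (mean ± SD, n = 3). TH had an RPKM of 5.84 ± 0.257, DBH of 3.91 ± 0.448 and SLC18A1 of 2.30 ± 0.155. MAOA (0.699 ± 0.0196), SLC18A2 (0.0989 ± 0.00441) and MAOB (0.0142 ± 0.0167) were lowest on this scale. Per length, reuptake and the enzymes DDC and GCH1 were thus highest in Control, the rate-limiting TH and the vesicular DBH and SLC18A1 lay below them, and SLC18A1 was far above the other vesicular transporter SLC18A2. The spread of the 9 genes over the conditions, as the highest condition mean of the value over the lowest, was 48.7-fold for MAOA, 9.95-fold for DBH, 9.78-fold for SLC18A1, 7.34-fold for MAOB, 5.64-fold for SLC18A2, 4.67-fold for GCH1, 4.01-fold for TH, 2.14-fold for SLC6A2 and 1.69-fold for DDC.

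**Figure D2:**
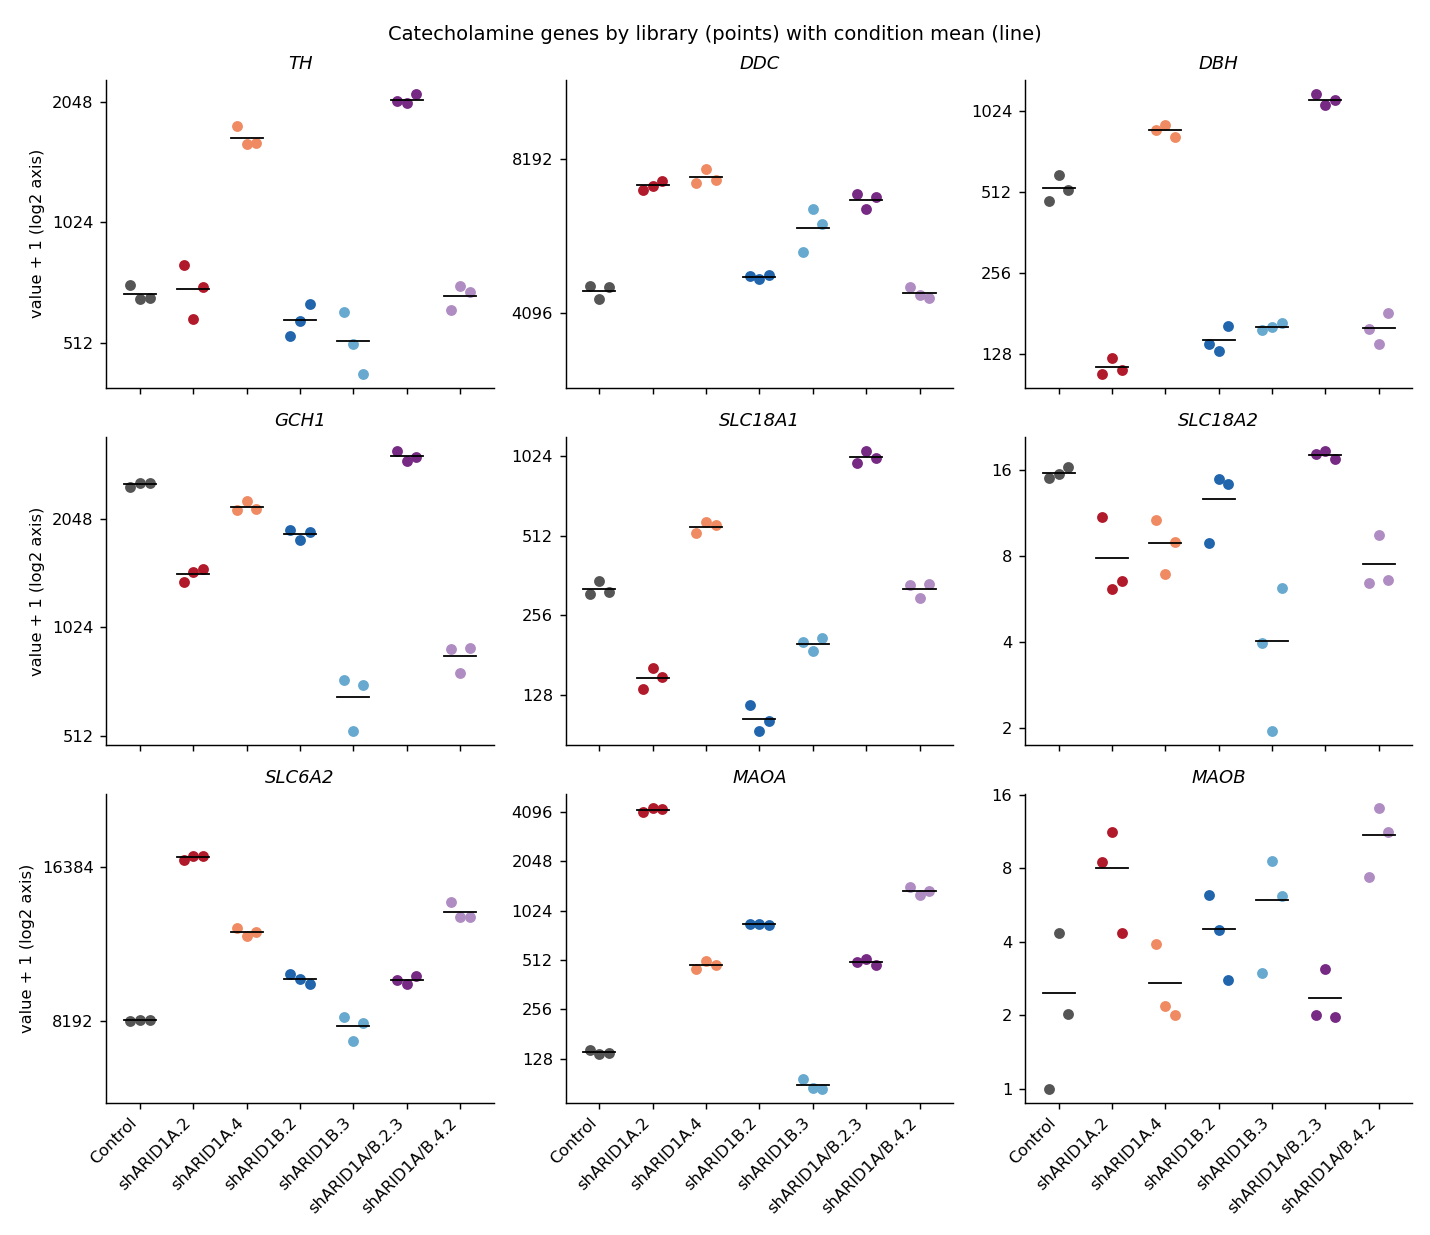
The 9 catecholamine genes in each library (points, value + 1 on a log2 axis, 1 panel per gene with its own axis range) by labelled condition, with the mean of the 3 libraries as a line. TH, DBH and SLC18A1 are highest in shARID1A/B.2.3 and next in shARID1A.4, MAOA is highest in shARID1A.2 and lowest in shARID1B.3, and the points of SLC18A2 and MAOB are few reads each.

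Against Control, 8 of the 9 genes passed the threshold in shARID1A.2 (4 higher and 4 lower), where 76.1% of all tested genes did. In shARID1A.4 it was 8 of 9 (6 higher, 2 lower) against 73.6% of all genes, and in shARID1B.2 5 of 9 (2 higher, 3 lower) against 65.6%. In shARID1B.3 8 of 9 passed (2 higher, 6 lower) against 63.9%, in shARID1A/B.2.3 7 of 9 (all higher) against 69.2%, and in shARID1A/B.4.2 6 of 9 (3 higher, 3 lower) against 71.2%. The split was 6 higher and 0 lower in shARID1A.4 with scaling to the upper quartile, and 5 higher and 3 lower in shARID1A/B.4.2 with scaling to total reads. The median of all genes moved to 0.099 and 0.20 there. Most tested genes passed in every condition, so the shares of the 9 genes say little on their own. With a log2 fold change over 1 in size as well, 6 of 9 passed in shARID1A.2 (24.8% of all genes), 2 in shARID1A.4 (21.4%), 3 in shARID1B.2 (12.0%), 4 in shARID1B.3 (11.8%), 4 in shARID1A/B.2.3 (16.1%) and 5 in shARID1A/B.4.2 (18.4%). MAOB is among the genes counted in shARID1A.2, shARID1B.3 and shARID1A/B.4.2, and its count in the first and last of these follows from the filter. Its call in shARID1B.3 was lost under several alternatives given below. SLC18A2 is counted in the same conditions, and its falls there are not independent of the filter. The 6 comparisons share the 3 Control libraries, so their values are given side by side and do not count as independent.

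**Figure D3:**
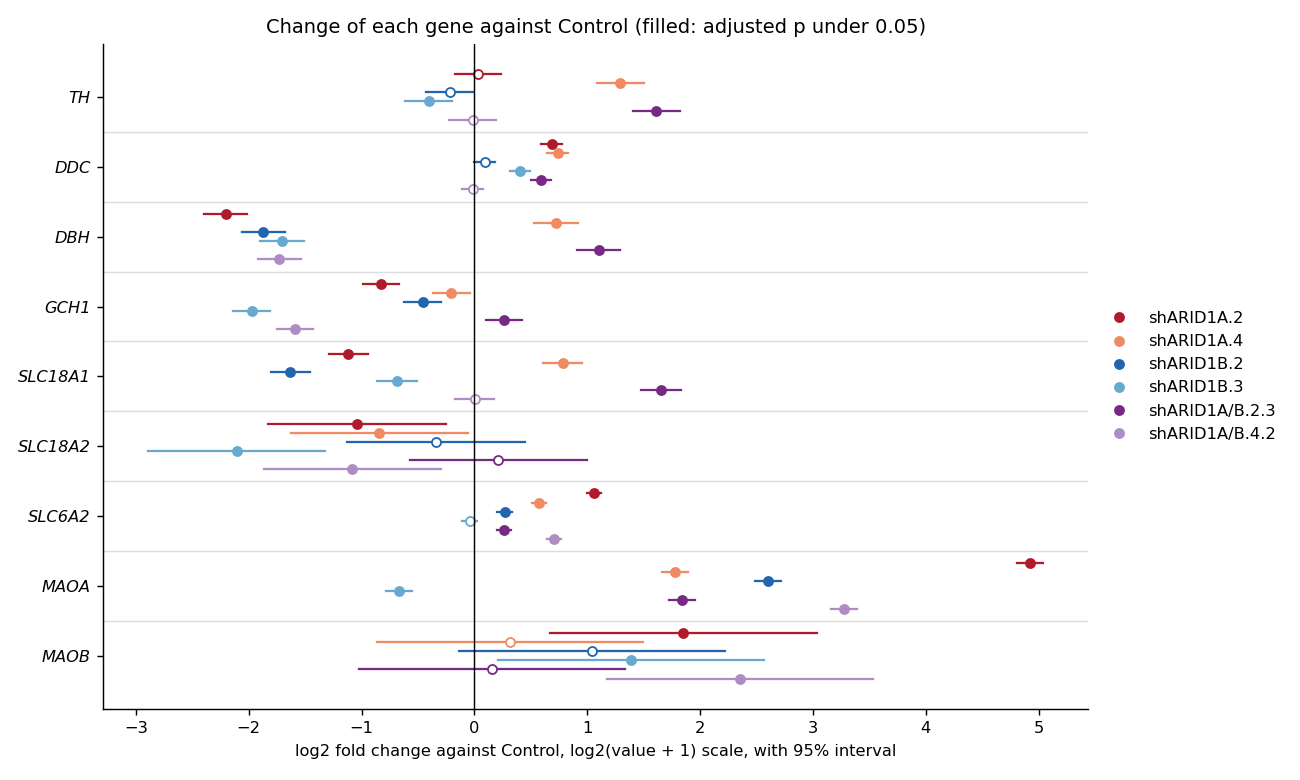
Log2 fold change against Control of each gene in the 6 silenced conditions, on the log2(value + 1) scale, with the 95% interval of the limma fit as a line. Filled points have an adjusted p under 0.05 and open points do not. MAOA reaches 4.92 in shARID1A.2, DBH lies at -1.71 or below in 4 conditions and above 0 in the other 2, and the intervals of SLC18A2 and MAOB are wide.

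TH (ENSG00000180176, chromosome 11, 2163929 to 2171877, minus strand, GRCh38 and GENCODE release 29, as for all positions of genes here) was 714, 659 and 660.4 in the 3 Control libraries. It was 1775, 1599 and 1615 in shARID1A.4 and 2047, 2025 and 2141 in shARID1A/B.2.3. These 6 libraries all lay above every other library. In shARID1A.2 it was 801, 588 and 705, in shARID1A/B.4.2 618, 711 and 686, in shARID1B.2 531, 581 and 638 and in shARID1B.3 612, 509 and 427. The first 2 of these overlapped Control, and both conditions labelled shARID1B lay below it without overlap. TH rose by 1.29 in shARID1A.4 and 1.61 in shARID1A/B.2.3 on the log2 scale (standard error 0.10, adjusted p = 1.88e-11 and 3.22e-13 from limma). It fell by 0.41 in shARID1B.3 (adjusted p = 0.00103 from limma). The difference of -0.22 in shARID1B.2 missed the threshold (adjusted p = 0.0586 from limma) and passed it without shARID1B.2 replicate 3, at -0.29 (adjusted p = 0.0281). It also passed with at least 10 reads in every library (adjusted p = 0.0445 from limma) or with only the libraries compared (0.00732). In shARID1A.2 the difference from Control was 0.032 (95% interval -0.18 to 0.24) and in shARID1A/B.4.2 -0.016 (-0.22 to 0.19), so neither a rise nor a fall of TH was detected there, and the sign of each turned with 1 library left out.

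DBH (ENSG00000123454, chromosome 9, 133635348 to 133659344, plus strand), the vesicular enzyme that makes noradrenaline, was 476, 591 and 519.7 in Control. It was 872, 913 and 823 in shARID1A.4 and 1189.8, 1078 and 1126 in shARID1A/B.2.3, above Control in all 6 libraries. In shARID1A.2 it was 107, 123 and 111. In shARID1B.2 it was 139, 131 and 162, in shARID1B.3 156, 161 and 166 and in shARID1A/B.4.2 158, 138 and 181. These 12 libraries lay far below Control, and among them shARID1B.3, shARID1A/B.4.2 and shARID1B.2 overlapped their neighbours in the order of means, while shARID1A.2 lay below them all. On the log2 scale DBH fell by 2.20 in shARID1A.2 (standard error 0.093, adjusted p = 9.9e-17 from limma), 1.87 in shARID1B.2, 1.73 in shARID1A/B.4.2 and 1.71 in shARID1B.3 (adjusted p at most 4.33e-14). It rose by 0.72 in shARID1A.4 and 1.10 in shARID1A/B.2.3 (adjusted p = 1.82e-07 and 1.25e-10 from limma). The antisense gene DBH-AS1 overlaps DBH and had values of 61.8 to 121, with a row of its own. The libraries were made with a stranded kit, but the strand setting of the counting is not given in the sources used here.

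SLC18A1 (ENSG00000036565, chromosome 8, 20144855 to 20183206, minus strand), the vesicular monoamine transporter of neuroendocrine cells, followed the order of DBH at the top. It was 308, 345 and 312 in Control, 522, 576 and 563 in shARID1A.4 and 959.9, 1068 and 1009 in shARID1A/B.2.3. In shARID1A/B.4.2 it was 332, 298 and 335, which overlapped Control. It was 134, 161 and 149 in shARID1A.2, 116, 92.6 and 101 in shARID1B.2 and 202, 186 and 209.8 in shARID1B.3, below Control in all 9 libraries. SLC18A1 rose by 1.65 in shARID1A/B.2.3 and 0.78 in shARID1A.4 on the log2 scale (standard error 0.084, adjusted p = 6.4e-15 and 8.58e-09 from limma). It fell by 1.63 in shARID1B.2, 1.12 in shARID1A.2 and 0.69 in shARID1B.3 (adjusted p at most 1.25e-07 from limma). In shARID1A/B.4.2, in which DBH fell, the difference of SLC18A1 from Control was 0.00042 (95% interval -0.17 to 0.17), and it passed the threshold at 0.19 with scaling to total reads, which moved the median of all genes to 0.20.

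SLC18A2 (ENSG00000165646, chromosome 10, 117241073 to 117279430, plus strand) encodes the vesicular monoamine transporter best known from brain neurones, and few of its reads were seen. Its value was 14.1, 14.6 and 15.4 in Control, 17.2, 17.7 and 16.5 in shARID1A/B.2.3 and 7.88, 13.9 and 13.3 in shARID1B.2. It was 9.97, 5.15 and 5.57 in shARID1A.2 and 9.71, 5.95 and 7.98 in shARID1A.4. In shARID1A/B.4.2 it was 5.47, 8.5 and 5.62 and in shARID1B.3 2.99, 0.950 and 5.18. All 18 silenced libraries fell outside the Control range, those of shARID1A/B.2.3 above it and the other 15 below it. That range is narrow and rests on 12, 13 and 15 reads, so lying outside it says little on its own. The Control libraries held 40 reads together, and relative to total reads the ratio to Control was 0.215 (95% interval 0.0961 to 0.438) in shARID1B.3, 0.514 (95% interval 0.294 to 0.880) in shARID1A/B.4.2 and 0.549 (95% interval 0.310 to 0.945) in shARID1A.2, where the intervals cover counting error only. SLC18A2 fell by 2.11 in shARID1B.3 (standard error 0.38, adjusted p = 3.34e-05 from limma), 1.08 in shARID1A/B.4.2 (adjusted p = 0.0141) and 1.04 in shARID1A.2 (adjusted p = 0.0164) on the log2 scale. These falls are not independent of the filter, which SLC18A2 passed partly through Control but through no library of shARID1B.3, shARID1A/B.4.2 or shARID1A.4. The call in shARID1A.2 was lost without its replicate 2 (adjusted p = 0.0661 from limma) or its replicate 3 (0.0549), and with DESeq2 (adjusted p = 0.0546). The fall of 0.84 in shARID1A.4 (adjusted p = 0.0499 from limma) was lost without any 1 Control library or without shARID1A.4 replicate 2 or 3 (0.0779 to 0.159). It was also lost with DESeq2 (adjusted p = 0.112), and with limma at a pseudocount of 0.5 (0.0660) or with no filter (0.121). Scaling to total reads, by TMM or to the upper quartile (0.0552 to 0.0746) and the replicate block (0.0573) lost it as well. Differences of -0.34 in shARID1B.2 and 0.21 in shARID1A/B.2.3 did not pass (adjusted p = 0.447 and 0.637 from limma). The ratios to Control relative to total reads were 0.858 (95% interval 0.532 to 1.38) and 1.19 (95% interval 0.773 to 1.85) in these 2 conditions. PDZD8 overlaps the last part of SLC18A2 on the other strand with values of 1439 to 3801, and the antisense gene AL391988.1 with 8.91 to 49.5, and their share in the SLC18A2 reads was not tested.

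The bases before the RefSeq start of SLC18A2 are shown because this promoter, unlike that of the other matched genes, held a full cAMP response element. RefSeq promoter windows of GRCh38.p14 matched 5 of the 9 genes, and only bases outside every annotated exon are printed, 5′ to 3′ on the strand of the gene. The stretch is chr10:117240864-117241072 on the plus strand, with GC boxes (GGGCGG) and the cAMP response element half-site (TGACG), on either strand, in capitals.
SLC18A2: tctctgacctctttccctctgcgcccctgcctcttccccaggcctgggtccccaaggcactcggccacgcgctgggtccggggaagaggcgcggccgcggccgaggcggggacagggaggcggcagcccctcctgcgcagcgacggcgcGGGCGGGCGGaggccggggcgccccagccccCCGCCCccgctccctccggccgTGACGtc
The octamer TGACGTCA, which contains 2 overlapping half-sites, ends 1 base into the first exon and was found in 1.65% of 35116 promoter windows of 250 bases. GC boxes were present in 42.6% of these windows and the half-site in 21.2%. A match describes letters in the window and does not show binding of a factor.

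DDC (ENSG00000132437, chromosome 7, 50458436 to 50565457, minus strand), the decarboxylase that makes dopamine, varied least. It was 4623, 4365 and 4602 in Control and 4609, 4440.2 and 4381 in shARID1A/B.4.2, which overlapped. It was 7139.6, 7271 and 7413 in shARID1A.2, 7368, 7840.1 and 7469 in shARID1A.4 and 6995, 6539.6 and 6909 in shARID1A/B.2.3. In shARID1B.3 it was 5389.7, 6534 and 6105 and in shARID1B.2 4839.6, 4786 and 4852. Every library of these 5 conditions lay above every Control library, by a small margin in shARID1B.2. DDC rose by 0.74 in shARID1A.4, 0.68 in shARID1A.2, 0.59 in shARID1A/B.2.3 and 0.40 in shARID1B.3 on the log2 scale (standard error 0.044, adjusted p at most 1.87e-08 from limma). The difference of 0.092 in shARID1B.2 missed the threshold (adjusted p = 0.0725 from limma) and passed it with edgeR's quasi-likelihood test (0.12, adjusted p = 0.0234) or TMM scaling (0.12, 0.0202), with scaling to total reads (0.23, 4.27e-05) or the upper quartile (0.21, 0.000143), and with only the libraries compared (0.092, 0.00612). Relative to the median of all genes it was 0.083 with scaling to total reads or the upper quartile. In shARID1A/B.4.2 the difference was -0.017 (95% interval -0.11 to 0.074), and its sign turned with TMM scaling (0.018), scaling to total reads (0.17, adjusted p = 0.000869 from limma) or to the upper quartile (0.15, adjusted p = 0.00408), where it was -0.032, -0.030 and -0.030 relative to the median of all genes. FIGNL1 overlaps the DDC gene on the same strand and had values of 568 to 2203.

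DDC has 2 starts in the RefSeq promoter table, both shown because the value per gene does not separate the transcripts that begin at them. The start within the gene follows chr7:50561072-50561321 and the outer start chr7:50565458-50565655, both on the minus strand, with GC boxes and cAMP half-sites to be marked in capitals.
DDC inner start: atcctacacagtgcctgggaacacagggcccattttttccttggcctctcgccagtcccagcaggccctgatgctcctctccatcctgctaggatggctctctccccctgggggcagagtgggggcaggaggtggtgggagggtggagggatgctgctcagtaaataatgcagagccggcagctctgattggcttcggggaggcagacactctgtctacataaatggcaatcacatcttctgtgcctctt
DDC outer start: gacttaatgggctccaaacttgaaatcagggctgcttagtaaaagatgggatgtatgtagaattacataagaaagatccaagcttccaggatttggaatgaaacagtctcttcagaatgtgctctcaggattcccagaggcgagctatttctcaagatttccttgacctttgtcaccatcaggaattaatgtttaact
Neither stretch holds a GC box or a half-site, so no letter is in capitals.

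GCH1 (ENSG00000131979, chromosome 14, 54842008 to 54902852, minus strand) makes the first intermediate of the cofactor of tyrosine hydroxylase. It was 2503, 2574 and 2579 in Control, 3161, 2968 and 3048 in shARID1A/B.2.3 and 2169, 2295 and 2182 in shARID1A.4. In shARID1B.2 it was 1903, 1789 and 1877 and in shARID1A.2 1364, 1461 and 1486. The lowest libraries were those of shARID1A/B.4.2, with 890.0, 766 and 894, and of shARID1B.3, with 732, 525 and 709. No 2 neighbouring conditions overlapped in the order of their means. GCH1 fell by 1.97 in shARID1B.3 (standard error 0.078, adjusted p = 7.21e-17 from limma), 1.59 in shARID1A/B.4.2 (adjusted p = 2.91e-15), 0.83 in shARID1A.2 (adjusted p = 7.39e-10) and 0.46 in shARID1B.2 (adjusted p = 1.46e-05) on the log2 scale. It rose by 0.26 in shARID1A/B.2.3 (adjusted p = 0.00479 from limma). The fall of 0.20 in shARID1A.4 (adjusted p = 0.0219 from limma) was lost without Control replicate 2 or 3 or shARID1A.4 replicate 1 or 3 (adjusted p = 0.0526 to 0.0625). It was also lost with scaling to the upper quartile (-0.12, adjusted p = 0.175 from limma), which moved the median of all genes to 0.099. Relative to that median GCH1 was -0.22. TH and GCH1 did not change together in every condition. In shARID1A.2 and shARID1A/B.4.2 GCH1 fell while TH differed by 0.032 and -0.016. In shARID1A.4 TH rose, while the fall of GCH1 was not stable. Both rose in shARID1A/B.2.3, by 1.61 for TH and 0.26 for GCH1. Both fell in shARID1B.3, by 0.41 and 1.97. In shARID1B.2 GCH1 fell by 0.46, and the difference of -0.22 for TH did not pass.

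SLC6A2 (ENSG00000103546, chromosome 16, 55655604 to 55706192, plus strand), the noradrenaline transporter, was 8184, 8232 and 8241 in Control and 8358, 7483 and 8135 in shARID1B.3, which overlapped. It was 16895, 17188 and 17224 in shARID1A.2, 13999, 13091 and 13064 in shARID1A/B.4.2 and 12471, 12003 and 12217 in shARID1A.4. In shARID1B.2 it was 10112, 9886 and 9695 and in shARID1A/B.2.3 9829.8, 9689.6 and 10048, which overlapped each other. These 5 conditions lay above Control in all 15 libraries. SLC6A2 rose by 1.06 in shARID1A.2, 0.70 in shARID1A/B.4.2 and 0.57 in shARID1A.4, and by 0.27 and 0.26 in shARID1B.2 and shARID1A/B.2.3 (standard error 0.031, adjusted p at most 5.18e-08 from limma). In shARID1B.3 the difference was -0.042 (95% interval -0.11 to 0.022). It passed the threshold without its replicate 1 (-0.075, adjusted p = 0.0438 from limma) and was 0.017 with scaling to the upper quartile. AC136621.1, a transcript model on the same strand, overlaps the end of SLC6A2 with values of 2099 to 5351, and how reads were divided between them is not given in the sources used here.

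MAOA (ENSG00000189221, chromosome X, 43654907 to 43746824, plus strand), which prefers serotonin and noradrenaline as substrates, changed most. It was 143, 135 and 137 in Control and 4113, 4325 and 4264 in shARID1A.2. It was 1420.1, 1281 and 1344 in shARID1A/B.4.2 and 853, 847 and 833 in shARID1B.2. In shARID1A/B.2.3 it was 498, 521 and 473, in shARID1A.4 451, 501 and 478 and in shARID1B.3 94.6, 83.6 and 82.9. The only neighbouring conditions that overlapped were shARID1A/B.2.3 and shARID1A.4, and shARID1B.3 was the only condition below Control. On the log2 scale MAOA rose by 4.92, or 30.4-fold on the value + 1 scale, in shARID1A.2 (standard error 0.056, adjusted p = 7.04e-28 from limma). It rose by 3.27 in shARID1A/B.4.2, 2.60 in shARID1B.2, 1.84 in shARID1A/B.2.3 and 1.77 in shARID1A.4 (adjusted p at most 2.78e-19 from limma). In shARID1B.3 it fell by 0.67 (adjusted p = 1.67e-10 from limma). Per length, MAOA in shARID1A.2 had an RPKM of 24.1 ± 0.461 (mean ± SD, n = 3). The 250 bases before its RefSeq start, which lay wholly within annotated exons, held 4 GC boxes.

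Markers of Schwann cell precursors or glia were set beside MAOA. Of the 6 markers, 4 were tested and 1 rose and 1 fell in shARID1A.2, and their summed value was 137 to 161 in Control, 569 to 609 in shARID1A.2, 282 to 324 in shARID1A/B.4.2 and 230.4 to 249 in shARID1B.2. It was 142 to 174 in shARID1B.3, 233 to 263 in shARID1A.4 and 183 to 189 in shARID1A/B.2.3. The defining marker SOX10 was at 0 in every library and FOXD3 had a mean of at most 0.343. The part of these markers in the MAOA result was not tested.

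MAOB (ENSG00000069535, chromosome X, 43766611 to 43882447, minus strand), the other monoamine oxidase and the neighbour of MAOA, was close to the limit of detection. It was 0, 3.36 and 1.03 in Control, 2.91, 1.19 and 1 in shARID1A.4 and 1.01, 2.08 and 0.970 in shARID1A/B.2.3. It was 6.38, 13.1 and 10.3 in shARID1A/B.4.2, 7.48, 10.3 and 3.34 in shARID1A.2 and 1.99, 7.60 and 5.18 in shARID1B.3. In shARID1B.2 it was 5.25, 3.47 and 1.78. The 3 shARID1A/B.4.2 libraries lay above every Control library, and the other conditions overlapped Control. The Control libraries held 4 MAOB reads together and those of shARID1A/B.4.2 35, and relative to total reads the ratio was 7.83 (95% interval 2.80 to 30.3), with 5.49 (95% interval 1.86 to 21.9) in shARID1A.2. On the log2 scale the difference was 2.35 in shARID1A/B.4.2 and 1.85 in shARID1A.2 (standard error 0.57), given as a description, since MAOB passed the filter only through libraries of these conditions. The rise of 1.39 in shARID1B.3 (adjusted p = 0.0372 from limma) was lost, at 0.86 (adjusted p = 0.215), without Control replicate 1, which held no MAOB read. It was also lost without Control replicate 3 (1.38, adjusted p = 0.0702 from limma) or shARID1B.3 replicate 2 or 3 (1.06 and 1.29, adjusted p = 0.160 and 0.0916). Neither edgeR (1.70, adjusted p = 0.0539) nor DESeq2 (1.75, adjusted p = 0.118) called this rise. With limma it was also lost at a pseudocount of 5 (0.61, adjusted p = 0.0659) and with no filter (1.39, adjusted p = 0.0599). Differences in shARID1B.2 (1.04, 95% interval -0.14 to 2.22), shARID1A.4 (0.32, -0.86 to 1.50) and shARID1A/B.2.3 (0.15, -1.03 to 1.33) did not pass, and that in shARID1B.2 passed without Control replicate 2 (1.58, adjusted p = 0.0247 from limma).

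The 250 bases before the RefSeq start of MAOB are shown as a promoter rich in GC boxes, here chrX:43882451-43882700 on the minus strand. The 7 matches of GGGCGG on either strand, of which 2 pairs overlap or adjoin, are in capitals, and no cAMP half-site was present.
MAOB: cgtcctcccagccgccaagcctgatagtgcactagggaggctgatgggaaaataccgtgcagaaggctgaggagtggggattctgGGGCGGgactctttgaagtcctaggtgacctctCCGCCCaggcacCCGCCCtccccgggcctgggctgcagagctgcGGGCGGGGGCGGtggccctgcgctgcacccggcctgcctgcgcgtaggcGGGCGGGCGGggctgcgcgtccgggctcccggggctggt
The windows of both monoamine oxidase genes thus held several GC boxes. At least 1 was present in 42.6% of all windows, and the share of windows with several was not computed. The window of DBH held 1 cAMP half-site and no GC box. All 250 bases of the DBH and MAOA windows lay within annotated exons, so neither is printed.

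**Figure D4:**
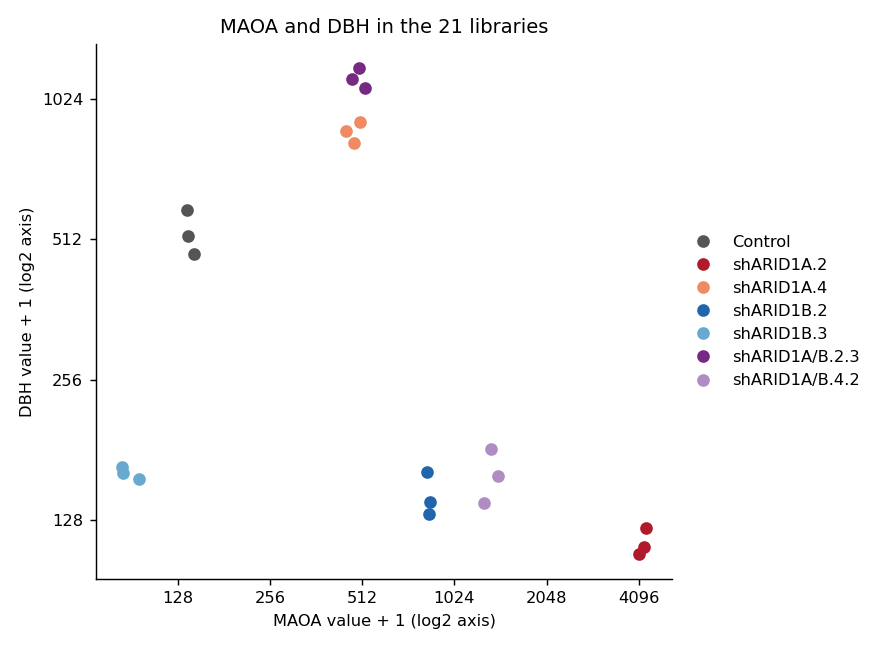
MAOA (horizontal axis) against DBH (vertical axis) in the 21 libraries, as value + 1 on log2 axes, 1 point per library and 1 colour per labelled condition. The libraries of a condition lie together, shARID1A.2 is at high MAOA and low DBH, shARID1B.3 is low in both, and shARID1A.4 and shARID1A/B.2.3 are high in DBH with MAOA above Control.

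The 2 shRNA sets under 1 label were then compared directly, without the Control libraries. Between shARID1A.2 and shARID1A.4, 7 of the 9 genes passed the threshold (75.8% of all genes). DBH was lower in shARID1A.2, with a log2 difference of -2.92 (standard error 0.093, adjusted p = 2.86e-19 from limma), as were SLC18A1 (-1.90), TH (-1.26) and GCH1 (-0.62), while MAOA was higher by 3.15, MAOB by 1.53 and SLC6A2 by 0.48. TH, DBH, GCH1 and SLC18A1 were thus lower, and SLC6A2 and MAOA higher, in shARID1A.2 than in shARID1A.4, while the direction of MAOB follows from the filter. The genes that did not pass were DDC (-0.055, 95% interval -0.15 to 0.036) and SLC18A2 (-0.20, -0.98 to 0.59).

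Between shARID1B.2 and shARID1B.3, 6 of 9 passed (66.0% of all genes). MAOA was higher by 3.27 in shARID1B.2 (adjusted p = 3.83e-24 from limma), SLC18A2 by 1.77, GCH1 by 1.52 and SLC6A2 by 0.31, while SLC18A1 (-0.94) and DDC (-0.31) were lower. The direction of SLC18A2 is not independent of the filter, whose read cutoff it reached in shARID1B.2 but not in shARID1B.3. DBH differed by -0.16 (95% interval -0.36 to 0.028), TH by 0.19 (-0.019 to 0.39) and MAOB by -0.34 (-1.52 to 0.84). The difference of DBH passed without shARID1B.2 replicate 3 (-0.25, adjusted p = 0.0291 from limma). That of TH passed without shARID1B.2 replicate 1 (0.25, adjusted p = 0.0494) or shARID1B.3 replicate 1 (0.32, adjusted p = 0.00555). TH also passed with scaling to total reads (0.30, adjusted p = 0.0162 from limma) or to the upper quartile (0.25, 0.0353). These scalings moved the median of all genes to 0.11 and 0.066.

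Between shARID1A/B.2.3 and shARID1A/B.4.2 all 9 passed (74.9% of all genes). DBH was higher by 2.83 in shARID1A/B.2.3 (adjusted p = 6.4e-19 from limma), GCH1 by 1.85, SLC18A1 by 1.65, TH by 1.63, SLC18A2 by 1.29 and DDC by 0.61. MAOB (-2.20), MAOA (-1.44) and SLC6A2 (-0.44) were lower. All 6 synthesis and storage genes were thus higher, and SLC6A2 and MAOA lower, in the set labelled 2.3 than in that labelled 4.2. The direction of MAOB follows from the filter, and that of SLC18A2 is not independent of it.

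The labels themselves were compared by the mean of their 2 conditions, again without Control. Between the labels shARID1A and shARID1B 7 of 9 passed (67.3% of all genes), all 7 higher in shARID1A, with MAOA at 2.38 (standard error 0.040, adjusted p = 4.18e-24 from limma), DBH at 1.05, SLC18A1 at 0.99 and TH at 0.97. Between shARID1A and shARID1A/B 6 of 9 passed (59.2% of all genes), with MAOA higher by 0.79 in shARID1A and SLC18A1 lower, at -0.99 (adjusted p = 1.18e-14 and 4.44e-13 from limma). Between shARID1A/B and shARID1B 7 of 9 passed (70.2% of all genes), all 7 higher in shARID1A/B, with SLC18A1 at 1.99, MAOA at 1.59 and DBH at 1.47 (adjusted p = 1.41e-19, 3.53e-21 and 3.86e-16 from limma). These means hide the split within the labels. For DBH the difference of 1.05 between the labels shARID1A and shARID1B averages shARID1A.4, which was above Control, and shARID1A.2, which was below both conditions labelled shARID1B.

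The counts of other pathway genes and markers against Control that follow are to be read beside the share of all genes called, which was 76.1% in shARID1A.2, 73.6% in shARID1A.4, 65.6% in shARID1B.2, 63.9% in shARID1B.3, 69.2% in shARID1A/B.2.3 and 71.2% in shARID1A/B.4.2. The lists are small, and nothing particular to them is read from their counts.

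The other genes of tetrahydrobiopterin synthesis, recycling and regulation changed in both directions. Of 7 genes tested, 4 rose and 2 fell in shARID1A.2, 2 and 3 in shARID1A.4, 2 and 5 in shARID1B.2, 3 and 2 in shARID1B.3, 2 and 3 in shARID1A/B.2.3, and 4 and 1 in shARID1A/B.4.2. GCHFR, the feedback regulator that inhibits GTP cyclohydrolase, had a mean of 8.30 in Control, 125 in shARID1A.2 (log2 change 3.80, adjusted p = 3.47e-11 from limma), 47.2 in shARID1A/B.4.2 and 32.8 in shARID1B.2. SPR, sepiapterin reductase, rose by 1.43 in shARID1A.4 and 1.02 in shARID1B.3 and changed by -0.56 in shARID1A.2 (adjusted p at most 1.14e-05 from limma). The list median was 0.22, -0.025, -0.18, 0.11, -0.069 and 0.50 in the 6 conditions in the order above, against 0.0098 to 0.018 over all genes.

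The list for catecholamine transport and breakdown outside the 9 genes held 12 genes, of which 9 were tested. It also holds PNMT, a gene of adrenaline synthesis, which was below the filter. In shARID1A.2 7 rose and 0 fell, in shARID1A.4 3 and 3, in shARID1B.2 8 and 0, in shARID1B.3 0 and 5, in shARID1A/B.2.3 4 and 3, and in shARID1A/B.4.2 5 and 1, with list medians of 0.15, -0.067, 0.19, -0.13, -0.013 and 0.15. RNLS, the flavoprotein renalase, rose from a mean of 13.2 in Control to 101 in shARID1A/B.4.2, 54.2 in shARID1A.2 and 41.2 in shARID1B.2 (log2 changes 2.91, 2.02 and 1.63, adjusted p at most 4.73e-06 from limma), the 3 conditions in which MAOA was highest. Whether the RNLS change bears on catecholamine breakdown was not tested. SLC29A4, a plasma membrane monoamine transporter, rose by 0.77 in shARID1A/B.4.2 and fell in shARID1B.3 (-0.73, adjusted p = 5.86e-11 from limma). SULT1A3 shares a near-identical copy with SULT1A4, and its value is uncertain.

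Catecholamines are stored in dense-core vesicles with granins and peptides, and 17 of 18 genes of their cargo and release were tested. In shARID1A.2 4 rose and 9 fell, in shARID1A.4 10 and 5, in shARID1B.2 6 and 11, in shARID1B.3 7 and 7, in shARID1A/B.2.3 9 and 7, and in shARID1A/B.4.2 7 and 9, with list medians of -0.26, 0.25, -0.72, -0.095, 0.20 and -0.57. VGF, a secreted neuroendocrine peptide precursor, was 4536 in Control, 28501 in shARID1B.3, 13204 in shARID1A.4, 1416 in shARID1B.2 and 1097 in shARID1A.2. NPY, the neuropeptide released with noradrenaline, fell in shARID1A.2 and shARID1A/B.4.2, with log2 changes of -2.36 and -2.51 (adjusted p = 3.85e-22 and 1.64e-22 from limma). CYB561, which supplies electrons for DBH through vesicular ascorbate, was 1665 in Control, 3303 in shARID1A/B.2.3 (0.99) and 644 in shARID1B.2 (-1.37, adjusted p = 1.32e-17 and 3.85e-20 from limma).

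The 12 transcription factors of the noradrenergic state were all tested. In shARID1A.2 4 rose and 7 fell, in shARID1A.4 5 and 5, in shARID1B.2 4 and 7, in shARID1B.3 4 and 5, in shARID1A/B.2.3 6 and 6, and in shARID1A/B.4.2 4 and 7, with list medians of -0.42, 0.15, -0.26, -0.026, 0.00012 and -0.25. HAND2 and ISL1 fell in shARID1A.2, with log2 changes of -1.70 and -1.22, and HAND2 and ISL1 fell in shARID1A/B.4.2, with -1.49 and -1.20 (adjusted p at most 3.69e-22 from limma). MYCN rose by 1.77 in shARID1A.4 and 0.83 in shARID1A/B.2.3 (adjusted p = 9.49e-25 and 2.87e-18 from limma), in which TH, DBH and SLC18A1 rose, and by 0.36 in shARID1B.3 (adjusted p = 8.75e-11 from limma), in which these 3 genes fell. Factors moved in both directions in each condition, as did the 9 genes in all but shARID1A/B.2.3. In shARID1A.4, however, the only falls among the 9 genes were those of GCH1 and SLC18A2. Both were lost with scaling to the upper quartile, where they were -0.22 and -0.86 relative to the median of all genes.

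**Figure D5:**
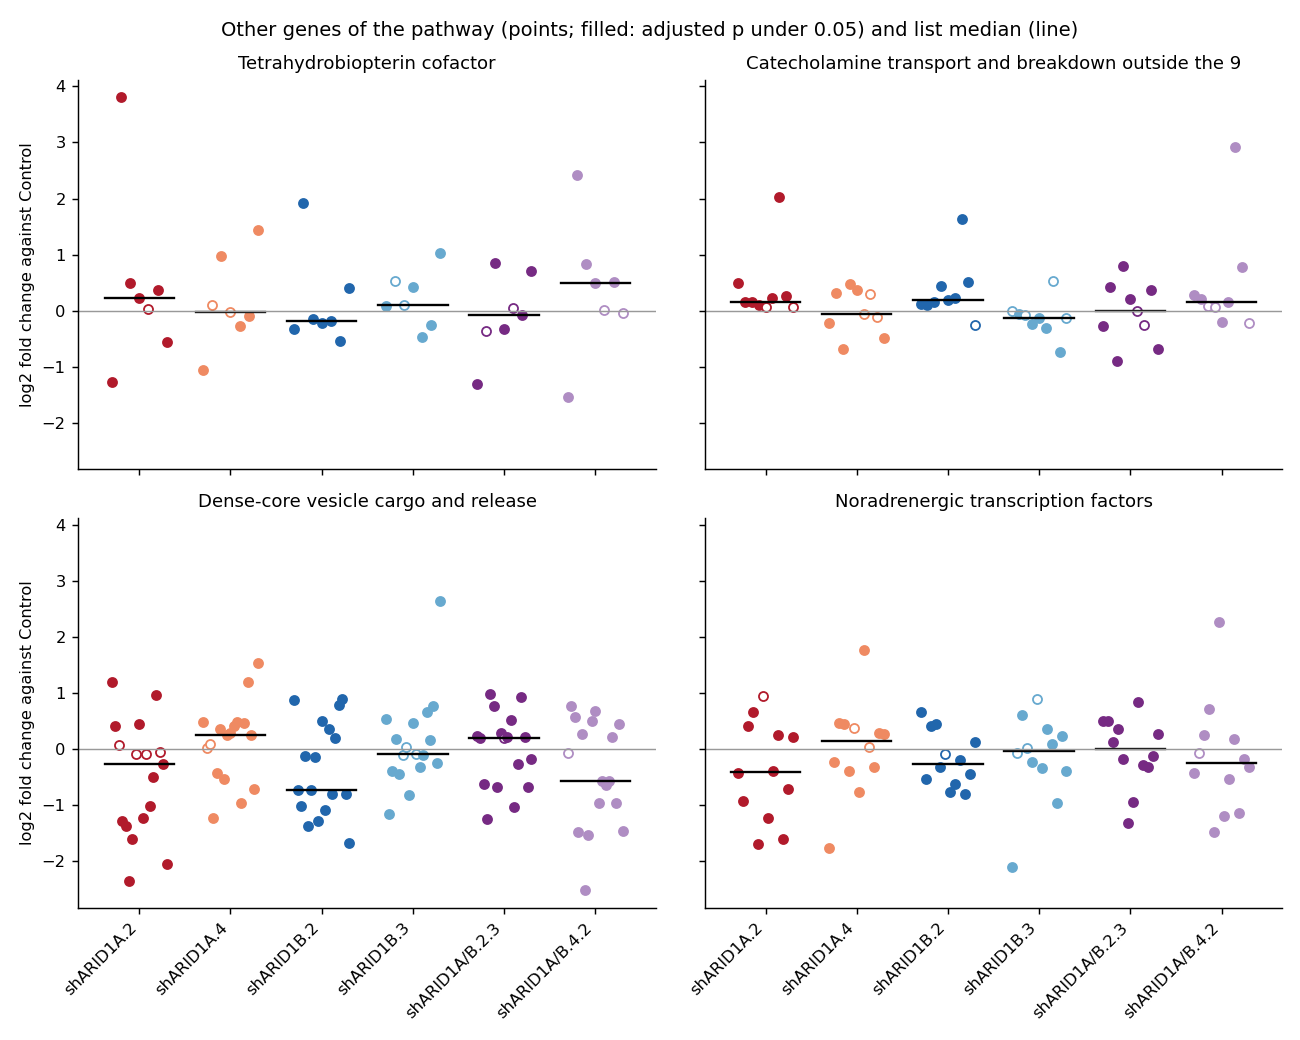
Log2 fold change against Control of the other pathway genes (points, 1 panel per list) in each silenced condition, with the list median as a line. Filled points have an adjusted p under 0.05. GCHFR at 3.80 in shARID1A.2 and RNLS at 2.91 in shARID1A/B.4.2 stand above the rest of their lists, and most medians lie within 0.5 of 0, with -0.72 and -0.57 for vesicle genes in shARID1B.2 and shARID1A/B.4.2.

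Of 14 adrenoceptor and dopamine receptor genes, 6 were tested, with 1 higher and 3 lower in shARID1A.2, 2 and 1 in shARID1A.4, 1 and 2 in shARID1B.2, 2 and 2 in shARID1B.3, 4 and 0 in shARID1A/B.2.3, and 1 and 1 in shARID1A/B.4.2. The summed value of the 14 was at most 515 in any library. ADRA2B, an inhibitory adrenoceptor, rose in 5 conditions, by 1.13 to 2.14 (adjusted p at most 0.0015 from limma), from a mean of 8.05 in Control. DRD2, an inhibitory dopamine receptor, was 80.6 in Control and 161 in shARID1A/B.2.3 (adjusted p = 0.000113 from limma). Its mean was 110 in shARID1A.4, but 34.5 to 50.5 in shARID1A.2, shARID1B.2, shARID1B.3 and shARID1A/B.4.2. Of the markers of other cell types, 4 of 5 tested mesenchymal-state markers fell in shARID1A.2, shARID1A.4, shARID1B.3, shARID1A/B.2.3 and shARID1A/B.4.2, and 2 of 5 in shARID1B.2. VIM, the intermediate filament vimentin and the marker with most of the summed value, rose in shARID1A.2 from a mean of 54216 in Control to 68738 (0.34, adjusted p = 5.15e-08 from limma), and the sum was 71714 to 73703 there against 60590.0 to 63060 in Control. PRRX1 had a mean of at most 0.997. CHAT, the acetylcholine synthase of cholinergic neurones, had a mean of 31.2 in Control, 3.74 in shARID1B.3 and 76.1 in shARID1A/B.2.3, and SLC18A3 of 216 to 438, while SLC5A7 was below the filter. Of the serotonergic and histaminergic markers, TPH1 had means of 27.3 to 43.5, and TPH2, SLC6A4 and HDC were below the filter.

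How the 9 genes varied together is given as a description over the 21 libraries, which share conditions and size factors. Pearson's r of log2(value + 1) was 0.92 between SLC6A2 and MAOA, 0.89 between DBH and SLC18A1, 0.85 between TH and DBH, 0.84 between TH and SLC18A1 and 0.83 between GCH1 and SLC18A2. Other pairs of synthesis and storage genes had lower values, with 0.73 between DBH and GCH1 and 0.65 between TH and GCH1. Among them r was 0.47 between GCH1 and SLC18A1, 0.46 between TH and SLC18A2, and 0.35 between the vesicular transporters SLC18A1 and SLC18A2. DDC had an r of 0.57 with TH, 0.31 with DBH and -0.16 with SLC18A2. The r was -0.37 between DBH and MAOA and 0.11 between TH and SLC6A2.

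Among all tested genes with a mean of at least 50, those most like the 9 by the same measure were CPNE7 and NCOA3 for TH (0.97 for both), GOT2 for DBH (0.99), IMPDH1 and EEF1A2 for SLC18A1 (0.98 and 0.97), SH3BGRL and B4GALT5 for GCH1 (0.96 for both), and SLC25A12 and BAZ2A for SLC6A2 (0.97 for both). They were ZNF862 and KDELR1 for MAOA (0.99 and 0.98), TERF2IP and EIF3D for DDC (0.92 and 0.91), ACADSB and ARPP19 for SLC18A2 (0.90 for both), and AC009275.1 and B3GALT1 for MAOB (0.85 and 0.84). The MAOB and SLC18A2 values rest on few reads.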

How the data were processed

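Polyadenylated RNA of SK-N-BE(2) cells was sequenced in 21 libraries, and samples were grouped by the titles in their labels. The deposited expression table holds a signal per gene and library, which the authors made by dividing read counts by 1 size factor per library. The submitters' processing notes name STAR 2.5.3a, RSEM 1.3.0, DESeq2 1.26.0 and GRCh38, without their order or settings. Whole read counts were recovered from the deposited signal for 100.0% of values at a tolerance of 0.1 read. The deposited comparison tables hold the authors' fold changes and p-values and were not used.

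Genes were kept with filterByExpr of edgeR 4.0.16 on the recovered reads (18584 of 60728). The signal was tested as log2(signal + 1) with limma 3.58.1 (trend, R 4.3.3) in a fit of all 21 libraries and 7 conditions, since the unit was not raw counts, with Benjamini-Hochberg adjustment. The 12 contrasts were 6 against Control, 3 between the 2 shRNA sets of a label and 3 between labels. edgeR's quasi-likelihood test and DESeq2 1.42.0 on the recovered reads, other pseudocounts (0.5 and 5), filters and scalings, a replicate block and leaving out each library were alternatives. Read ratios have 95% exact binomial intervals, which cover counting error only. Annotation was GENCODE release 29, matched for 58541 genes without version, and tables were made in Python 3.11.15 (pandas 2.3.3, numpy 2.4.6, scipy 1.17.1) and figures with matplotlib 3.10.9. The scripts were tested on simulated data.

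The 9 genes and the lists were chosen with earlier results of these data known. All 9 genes were named, with the 3 largest changes past the threshold per list and contrast, every gene of a list of 5 or fewer, the 2 genes most like each member among those with a mean of at least 50, and overlapping genes. Some genes that this rule names are not reported here. The members of the longer marker lists named to check the cell type were chosen after their values were seen. No source names separate cultures beyond the word triplicates, so p-values measure the spread between these libraries.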

Additional observations from a re-analysis of the deposited data

Results flagged for a closer look

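The 2 shRNA sets under 1 label gave different changes from Control for 22 of 27 comparisons of a gene and a label, by limma's direct test of the difference. Of all tested genes, 75.8% differed between the shARID1A sets, 66.0% between the shARID1B sets and 74.9% between the shARID1A/B sets. The count is near these shares, includes MAOB, and says little on its own. MAOB passed the filter on low reads only through shARID1A.2 and shARID1A/B.4.2, so its differences below follow from the filter. Those of SLC18A2 are not independent of it. The values below are log2 differences of the first named set minus the second.

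Between shARID1A.2 and shARID1A.4 the difference was -2.92 for DBH, -1.90 for SLC18A1, -1.26 for TH and -0.62 for GCH1, and 3.15 for MAOA, 1.53 for MAOB and 0.48 for SLC6A2. DBH and SLC18A1 were below Control in the first set and above it in the second.

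Between shARID1B.2 and shARID1B.3 it was 3.27 for MAOA, 1.77 for SLC18A2, 1.52 for GCH1 and 0.31 for SLC6A2, and -0.94 for SLC18A1 and -0.31 for DDC. MAOA was above Control in the first set and below it in the second.

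Between shARID1A/B.2.3 and shARID1A/B.4.2 it was 2.83 for DBH, 1.85 for GCH1, 1.65 for SLC18A1, 1.63 for TH, 1.29 for SLC18A2 and 0.61 for DDC, and -2.20 for MAOB, -1.44 for MAOA and -0.44 for SLC6A2. DBH and GCH1 were above Control in the first set and below it in the second. The search for a library far from the others of its condition was not made, since it needs at least 4 libraries.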

How the results depend on the processing

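The number of the 9 genes past the threshold stayed within 1.5 times its reported value under all 11 alternatives to the tests and with each library left out, in all 12 contrasts. Of the single values, 1107 kept their direction and side of the threshold under the alternatives, 13 passed it newly, 15 no longer passed and 16 changed sign. With 1 library left out the numbers were 760, 8, 23 and 19. No value past the threshold in the report changed sign. The cause of the changes was not tested. Calls lost were those of SLC18A2 in shARID1A.4 and shARID1A.2, MAOB in shARID1B.3 and between the shARID1A sets, GCH1 in shARID1A.4 and between the labels shARID1A and shARID1A/B, and SLC18A2 between the labels shARID1A/B and shARID1B (DESeq2, adjusted p = 0.0541). Depth limits SLC18A2 and MAOB, with 10 to 51 and 4 to 35 reads per condition.

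Scaling to total reads or to the upper quartile moved the median of all genes by up to 0.20 on the log2 scale. In shARID1A/B.4.2 against Control, TH was 0.025 with edgeR, 0.17 with total reads, 0.019 with TMM and 0.15 with the upper quartile, and DDC was 0.018, 0.17, 0.018 and 0.15. ARID1A there no longer passed with total reads (-0.027) or the upper quartile (-0.052). SLC6A2 in shARID1B.3 was 0.017 with the upper quartile. DDC between shARID1A.2 and shARID1A.4 was 0.095 with total reads and 0.042 with the upper quartile. MAOB was -0.10 with edgeR and -0.12 with DESeq2 in shARID1A/B.2.3, and -0.15 with edgeR, -0.18 with DESeq2 and -0.0066 with a pseudocount of 0.5 between the labels shARID1A/B and shARID1B. With the length of the longest transcript, RPKM in Control was 9.91 for TH, 62.0 for DDC, 3.04 for SLC18A1 and 64.6 for SLC6A2.

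With 1 library left out, TH ranged from -0.073 to 0.15 in shARID1A.2 and from -0.058 to 0.043 in shARID1A/B.4.2. MAOB ranged from -0.21 to 0.86 in shARID1A.4 and from -0.37 to 0.69 in shARID1A/B.2.3, SLC6A2 from -0.075 to 0.0047 in shARID1B.3 and SLC18A1 from -0.030 to 0.054 in shARID1A/B.4.2. Between labels MAOB ranged from -0.35 to 0.063 (shARID1A against shARID1B), -0.32 to 0.027 (shARID1A against shARID1A/B) and -0.18 to 0.20 (shARID1A/B against shARID1B).

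Libraries with the same replicate number did not deviate together (0 of 63 pairs over a correlation of 0.1, from -0.088 to 0.053). With the replicate block the members past the threshold in shARID1A.4 went from 8 to 7, with the loss of SLC18A2 (adjusted p = 0.0573 from limma).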
